A study of Mus musculus with 60 samples.

Results

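Base excision repair opens with a DNA glycosylase that cuts a damaged base from its sugar and with the endonuclease that nicks the strand at the bare sugar. The transcripts of 9 glycosylase genes (Ung, Tdg, Mbd4, Ogg1, Mutyh, Nthl1, Neil1, Neil2 and Neil3) and of Apex1, which encodes the main endonuclease, were followed in 60 RNA-seq libraries of cultured mouse fibroblasts. The members were the rows of both count tables whose identifier matched these 10 symbols, 10 of the 56980 genes in each table, and every one of the 10 passed the filter on low counts in each fit. The first table held 36 libraries of tail tip fibroblasts in 12 groups of 3. The D/KO line carried the 4FJ_ERCC1_(d/-) genotype, 1 truncated and 1 null allele of Ercc1, and came from a male of 8 weeks. The WT line was 4FJ_(+/-)_OCT4-GFP from a female of 22 weeks, so genotype, sex, age and reporter changed together between the lines and cannot be told apart. The D/KO line had an OKSM transgene in Col1a1 under the tetO promoter and the M2-rtTA activator in ROSA26, on a mixed C57BL6J and FVB background. The study's methods derive the WT line from another mouse with a cassette of the 4 factors in Col1a1 and give no background for it, so the source of the transgene and the strain may differ too. In both, doxycycline was used to induce Oct4, Klf4, Sox2 and Myc. Each line was sampled at day 0 without doxycycline and at days 2 and 4 of doxycycline at 2 µg/ml, without or with VC, which is ascorbic acid at 50 µg/ml plus CHIR-99201 (the labels' spelling) at 3 µM. The second table held 24 libraries in 8 groups of 3: tail tip and skin fibroblasts of an ERCC1_(+/+)_WT female of 14 weeks, tail tip fibroblasts of an ERCC1_(d/-) female of 4 weeks as control or with Repsox, Vactosertib, DMH-1 or A83-01, and tail tip fibroblasts labelled TGFB with the genotype, sex and age of the WT line of the first table. All cells were grown at 3% oxygen. The labels do not say that the 3 libraries of a group came from separate cultures or animals, so p-values measure only the spread between these libraries, which may be technical.

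A glycosylase recognises a small lesion, such as uracil, an oxidized guanine or an oxidized pyrimidine, flips it out of the helix and cleaves the bond to the sugar. Some glycosylases also cut the backbone themselves, whereas the others leave an abasic site that APEX1 incises before a polymerase and a ligase fill the gap. This pathway is separate from nucleotide excision repair, in which ERCC1-XPF cuts out bulky lesions. TDG is also known for removing the oxidized forms of methylcytosine that TET enzymes make, a step of active DNA demethylation that takes part in reprogramming.

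In GRCm39, the build of the files, all 10 members are protein-coding genes on 8 chromosomes. Among the glycosylases acting on uracil and on mismatched thymine, Ung (ENSMUSG00000029591) lies at chr5:114268447-114277384 on the plus strand, Tdg (ENSMUSG00000034674) at chr10:82465662-82486633 on the plus strand and Mbd4 (ENSMUSG00000030322) at chr6:115817658-115830332 on the minus strand. Of those acting on oxidized guanine and its pairing with adenine, Ogg1 (ENSMUSG00000030271) lies at chr6:113303933-113312029 and Mutyh (ENSMUSG00000028687) at chr4:116664920-116676637, both on the plus strand. The glycosylases for oxidized pyrimidines are Nthl1 (ENSMUSG00000041429, chr17:24851654-24857811, plus), Neil1 (ENSMUSG00000032298, chr9:57050084-57055589, minus), Neil2 (ENSMUSG00000035121, chr14:63419892-63431305, minus) and Neil3 (ENSMUSG00000039396, chr8:54039902-54092100, minus). Apex1 (ENSMUSG00000035960) lies at chr14:51162425-51164596 on the plus strand, and 877 of its 1422 exonic bases, 61.7%, are also exonic in Pip4p1 on the opposite strand. The counting appeared to ignore strand and to drop nearly all reads on bases that genes share: none of 479 genes whose exonic bases all lie under a gene of the opposite strand had a count in any of the 60 libraries, against 52.1% of 44308 genes that share no exonic base. Of 834 genes whose exonic bases are all shared on the same strand, 30 (3.6%) had counts, so the rule was not without exceptions there. With sharing on the opposite strand, the Apex1 values should come mainly from the unshared part of the gene, and its level is understated. The shared part was 10.6% for Ogg1, 6.8% for Tdg and 5.0% for Mbd4, and the other 6 members shared no exonic base.

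The promoters of 4 members are shown because these are the genes with the most frequent or the largest differences below (Apex1, Ung, Neil3) or a level that kept the lines apart in every library (Tdg). Each is the 250 bases before the RefSeq start of the gene in GRCm38.p6, written in the direction of the gene, and capitals mark the E-box CACGTG, which MYC binds among other factors, the CCAAT box (CCAAT, or ATTGG when on the other strand) and the GC box (GGGCGG, or CCGCCC when on the other strand). The intervals are chr14:50924699-50924948 on the plus strand for Apex1, chr10:82629588-82629837 on the plus strand for Tdg, chr5:114130185-114130434 on the plus strand for Ung and chr8:53639066-53639315 on the minus strand for Neil3.
Apex1: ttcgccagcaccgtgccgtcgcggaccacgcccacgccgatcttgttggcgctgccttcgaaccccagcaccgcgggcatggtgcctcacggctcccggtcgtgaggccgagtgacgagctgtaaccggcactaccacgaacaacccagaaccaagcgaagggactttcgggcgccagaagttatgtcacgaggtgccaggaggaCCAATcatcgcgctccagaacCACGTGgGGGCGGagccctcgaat
Tdg: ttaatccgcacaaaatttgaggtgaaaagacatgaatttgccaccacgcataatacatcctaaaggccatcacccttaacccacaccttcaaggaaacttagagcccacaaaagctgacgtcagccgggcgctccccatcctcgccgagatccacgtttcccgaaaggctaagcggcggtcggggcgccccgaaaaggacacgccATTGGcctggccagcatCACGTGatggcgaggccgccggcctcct
Ung: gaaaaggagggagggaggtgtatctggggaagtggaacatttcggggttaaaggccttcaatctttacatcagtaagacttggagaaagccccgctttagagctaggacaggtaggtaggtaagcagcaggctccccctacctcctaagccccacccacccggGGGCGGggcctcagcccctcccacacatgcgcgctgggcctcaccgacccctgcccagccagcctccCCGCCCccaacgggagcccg
Neil3: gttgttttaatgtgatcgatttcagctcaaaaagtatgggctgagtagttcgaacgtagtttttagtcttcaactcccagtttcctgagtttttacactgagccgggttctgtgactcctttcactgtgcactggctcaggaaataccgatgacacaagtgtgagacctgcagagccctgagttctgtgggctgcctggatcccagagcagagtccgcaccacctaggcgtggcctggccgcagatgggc

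RefSeq promoters were found for 9 of the 10 members, with 2 for Mutyh and none for Neil2, and 7 letter strings were searched on both strands. The E-box was in the promoters of Apex1, from 24 to 19 bases before the start, and of Tdg, from 28 to 23 bases before it, and in 6.02% of the 32851 mouse promoters of the same length. The CCAAT box was in 7 of the 10 member promoters, beside 33.9% of all promoters, and the GC box in 6 of the 10, beside 32.7%. The strings TTTCCCGC and TTTGGCGC, forms of the E2F site, TTTGAA, the core of the CHR element, and the NRF1 site were in no member promoter and in 0.895%, 0.417%, 15.99% and 3.74% of all promoters. The 2 GC boxes of Ung are the only capitals in its promoter, and that of Neil3 held none of the 7 strings. The Neil3 promoter was 51.6% G or C with 8 CG pairs, close to the median promoter at 52.4% and 6 pairs, and that of Apex1 was 64.8% with 28 pairs.

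All 10 members were read at low to moderate depth. The first table held 16538374 to 18484951 counts a library and the second 17102639 to 30599138. Ogg1, Tdg, Apex1 and Neil1 had between 60 and 835 counts in every library, Nthl1 27 to 204, Mbd4 15 to 97, Ung 5 to 126, Mutyh 4 to 47, Neil2 0 to 69 and Neil3 0 to 38, and differences of the last 3 were the least precise. The median SE of the log2 fold change over the 27 comparisons was 0.18 for Ogg1 and 0.56 for Neil3.

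Compared per kilobase of exon that no other gene shares, Apex1 was highest in the untreated D/KO cells at 13.5 ± 4.53 CPM per kb (CPM, counts scaled to library size; SD, n = 3), a value that rests on 545 unshared bases. Ogg1, the glycosylase for 8-oxoguanine, followed at 5.27 ± 1.37, Neil1 at 3.08 ± 0.32, Tdg at 2.14 ± 0.27 and Nthl1 at 1.74 ± 0.37 CPM per kb. Mbd4 (0.60 ± 0.12), Ung (0.46 ± 0.062) and Mutyh (0.25 ± 0.044) were lower, and Neil2 (0.076 ± 0.022) and Neil3 (0.072 ± 0.039 CPM per kb) were lowest. The neighbours Tdg and Nthl1, Mbd4 and Ung, and Neil2 and Neil3 overlapped between libraries in that order. In untreated WT cells Apex1 (11.7 ± 1.61 CPM per kb) and Ogg1 (6.33 ± 0.30) were again highest and Neil3 lowest at 0.035 ± 0.022, but Ung, at 0.15 ± 0.045, stood below Neil2 (0.27 ± 0.012), with no overlap between the libraries of these neighbours. The first place of Apex1 depended on leaving out shared bases. Per kilobase of all exons, Ogg1 (5.66) stood above Apex1 (4.50) in untreated WT cells without overlap, and in untreated D/KO cells their libraries overlapped. Across the 12 groups of the first table the group mean ran from 0.036 to 1.72 CPM for Neil3, from 0.249 to 2.58 for Neil2 and from 0.461 to 4.43 for Ung, but only from 8.62 to 12.7 CPM for Ogg1.

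**Figure D1:**
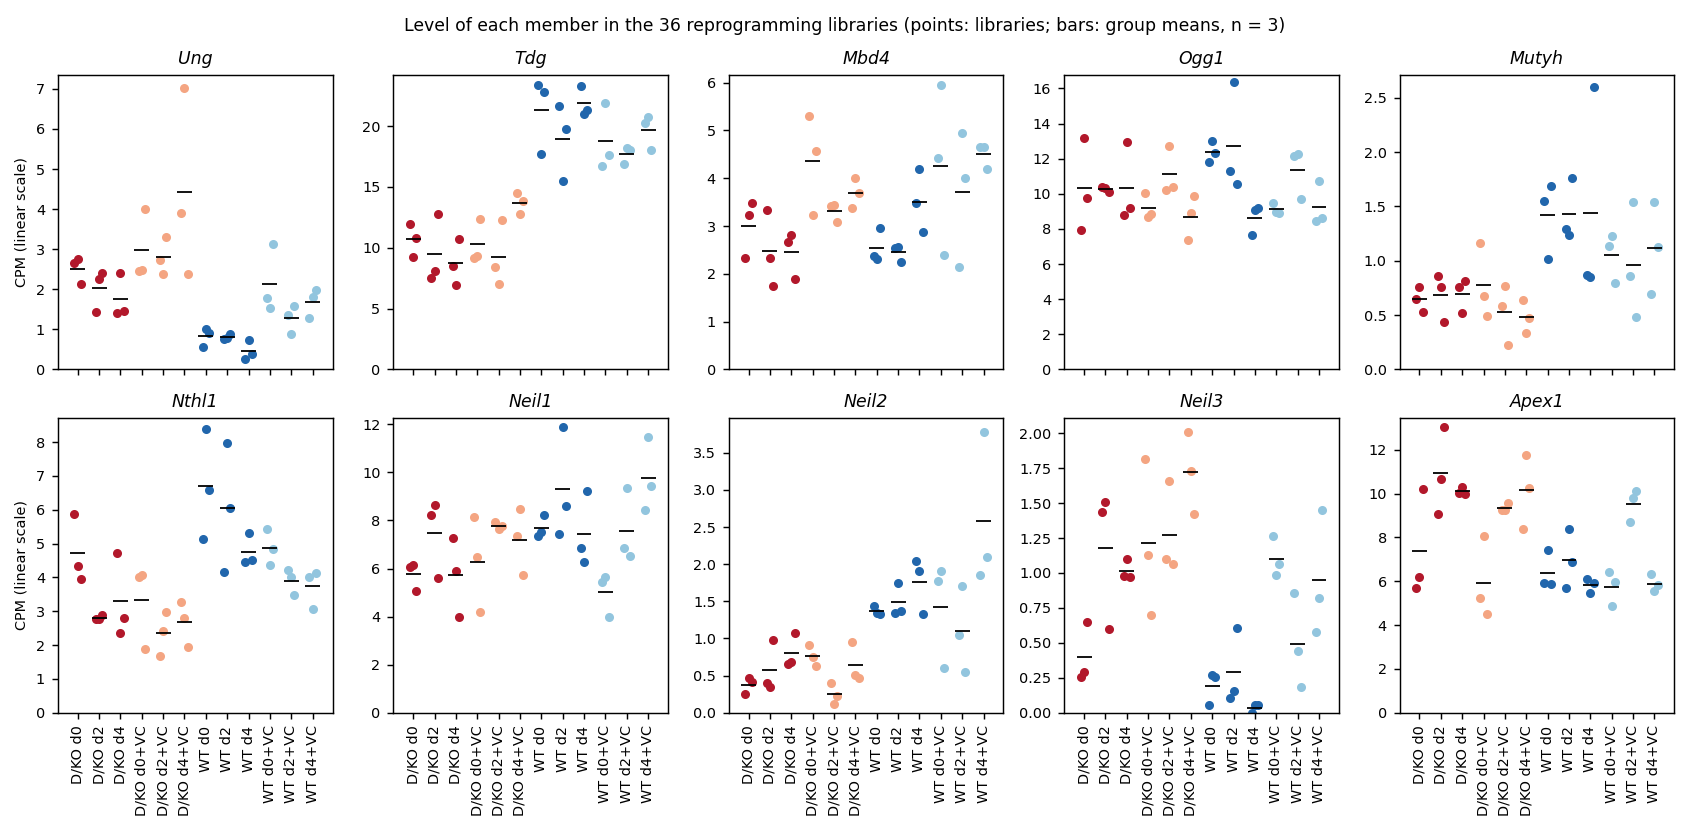
Level of each member (CPM, linear scale, 1 panel a gene) in the 36 libraries of the reprogramming table, by line, day of doxycycline and VC; points are libraries and bars are means of 3. Every WT library lies above every D/KO library for Tdg (lowest WT 15.5, highest D/KO 14.5 CPM), and the 3 WT day 4 libraries of Neil3 lie at 0, 0.053 and 0.055 CPM.

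The plot of levels shows that the members spread over unequal ranges, wide for Neil3, Ung and Neil2 and narrow for Ogg1. The tetO factors checked the induction: Pou5f1, Sox2, Klf4 and Myc were called higher, 4 of 4, in all 4 D/KO comparisons with day 0 and in both WT comparisons with VC, with a median log2 fold change at day 4 plus VC of 4.28 in D/KO and 4.00 in WT. In WT cells without VC only 3 of 4 were called, since Klf4 had a log2 fold change of 0.007 at day 2 and 0.25 at day 4. The Klf4 call at WT day 2 plus VC (log2 0.88) depended on its baseline, since VC lowered Klf4 at WT day 0 (log2 -1.10). The Klf4 mean of 166.5 CPM at WT day 2 plus VC was below the 192.9 CPM of WT day 0 without VC. WT day 2 replicate 2 stood apart in this check, with Pou5f1 at 12.5 CPM against 41.5 and 48.8 CPM in the other libraries of its group and Sox2 at 25.3 against 57.8 and 59.8 CPM. A gene was called where the adjusted p of edgeR's quasi-likelihood test was under 0.05 over all genes tested. Against day 0 in the same line and medium, 9 of 80 member tests were called, 6 higher and 3 lower. In D/KO cells 3 of 10 members were called at day 2, where 27.4% of the 15832 genes tested were called in either direction, and none at day 4, beside 37.0% (edgeR; 3 had an unadjusted p under 0.05, and DESeq2 called 1, Neil3). With VC, 2 of 10 were called at day 2, beside 47.4%, and 1 at day 4, beside 54.1%. In WT cells none was called at day 2 with or without replicate 2, beside 10.6% (edgeR; none at an unadjusted p under 0.05, none by DESeq2), 1 at day 4, beside 24.5%, 1 at day 2 plus VC, beside 27.5%, and 1 at day 4 plus VC, beside 44.7%. The counts with VC depended on the baseline: against day 0 without VC, 2 other members were called at D/KO day 2 plus VC (Nthl1 and Neil3, beside 46.6% of genes), 4 at D/KO day 4 plus VC (Ung, Nthl1, Neil3 and Apex1, beside 52.1%), 2 at WT day 2 plus VC (Nthl1 and Apex1, beside 37.3%) and 4 at WT day 4 plus VC (Ung, Mbd4, Nthl1 and Neil3 but not Neil1, beside 39.3%). Against day 0 in the same medium the share of members called was below that of all genes in 7 of the 8 comparisons. At D/KO day 2 it was near that share, and it was 0 to 3 members with 1 library left out and 1 with only the groups compared in the fit. The median log2 fold change of the members lay between -0.16 and 0.06 in the 8 comparisons, next to medians over all genes between -0.01 and 0.03.

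The change in D/KO cells minus the change in WT cells, called the genotype difference here although sex, age and reporter changed with it, was called for none of 10 members at day 2, beside 6.54% of genes, and at day 2 plus VC, beside 13.9% (edgeR; none at an unadjusted p under 0.05 and none by DESeq2 in either). It was called for 1 member at day 4, Neil3, beside 14.3%, and for 1 at day 4 plus VC, Apex1, beside 29.4%. VC against no VC was called in D/KO cells for 1 member at day 0 (beside 26.1% of genes), none at day 2 (25.3%; edgeR, with 1 at an unadjusted p under 0.05 and none by DESeq2) and 2 at day 4 (34.5%). In WT cells it was called for 4 members at day 0 (29.4%), none at day 2 (26.6%; edgeR, with 3 at an unadjusted p under 0.05 and none by DESeq2) and 2 at day 4 (22.4%). Without WT day 2 replicate 2, 1 member, Apex1, was called higher with VC at WT day 2. Between the untreated lines, 3 members were called, beside 43.2% of genes. Days 2 and 4 share their day 0 libraries and the VC comparisons share libraries with both, so these counts are not independent of each other.

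**Figure D2:**
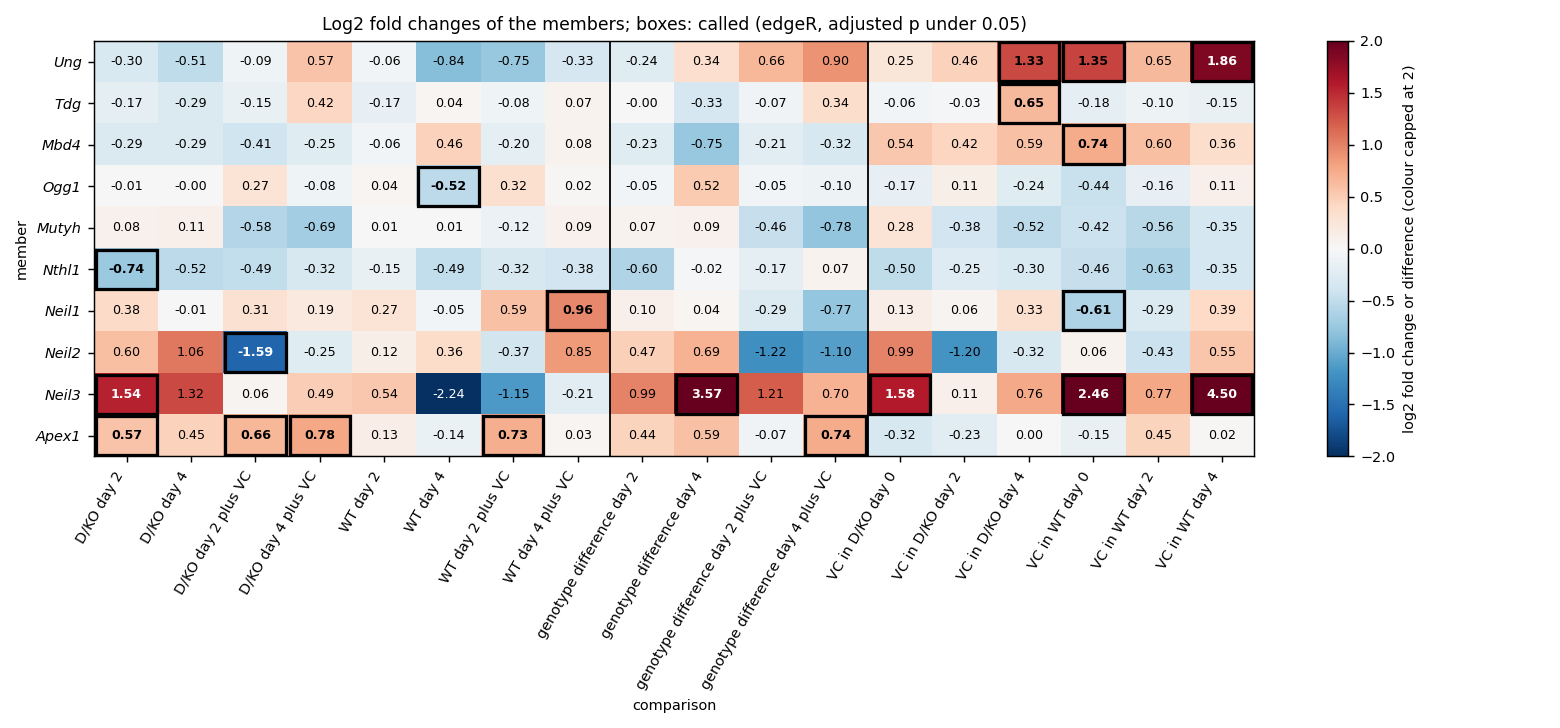
Log2 fold change of each member (rows) in 18 comparisons of the reprogramming table (columns: 8 time points against day 0, 4 genotype differences, 6 VC comparisons); colour runs from -2 to 2 and black boxes mark calls. The boxes sit mostly on Apex1, Ung and Neil3, and Mutyh has none.

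The map of fold changes places most calls on 3 members. Ung, Neil3 and Apex1 were each called in 5 of the 27 comparisons made over both tables, always higher, while Tdg, Mbd4, Neil1, Neil2 and Nthl1 were called in 2 each, Ogg1 in 1 and Mutyh in none. All 26 calls were kept with DESeq2 and with DESeq2 size factors in edgeR.

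Ung encodes the main uracil-DNA glycosylase, which removes uracil inserted during replication or left by deaminated cytosine. It was higher with VC in WT cells at days 0 and 4 and in D/KO cells at day 4, and higher in the untreated D/KO line than in the WT line. In WT cells at day 0 the libraries held 0.552, 1.02 and 0.919 CPM of Ung without VC and 1.77, 1.54 and 3.12 CPM with it. These groups did not overlap, and the difference was 2.55-fold (log2 1.35, SE 0.40, adjusted p = 0.00858), but the call was lost without WT day 0 replicate 1 (adjusted p = 0.0574) or WT day 0 plus VC replicate 3 (adjusted p = 0.103). At WT day 4 the libraries held 0.256, 0.742 and 0.386 CPM without VC and 1.28, 1.81 and 1.99 CPM with it, again apart. That difference was 3.64-fold (log2 1.86, SE 0.43, adjusted p = 0.00128) and was kept in all 10 alternatives in which it was tested. In D/KO cells at day 4 Ung stood at 1.41, 2.40 and 1.46 CPM without VC and at 3.91, 7.02 and 2.37 CPM with it, so the lowest VC library lay just inside the range of the others. The fold was 2.51 (log2 1.33, SE 0.35, adjusted p = 0.00296), and without D/KO day 4 plus VC replicate 2, the highest library, the log2 fold change was 0.83 and the call was lost (adjusted p = 0.0825).

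Between the untreated lines Ung was at 2.64, 2.76 and 2.12 CPM in D/KO and 0.552, 1.02 and 0.919 CPM in WT, with no overlap. The D/KO line was 2.99-fold higher (log2 1.58, SE 0.39, adjusted p = 0.00124), a call kept in all 10 alternatives in which it was tested. In the second table the D/KO control was at 1.45, 1.17 and 1.36 CPM and the WT tail control at 0.708, 0.775 and 0.906 CPM, apart but not called (log2 0.75, 95% interval -0.098 to 1.59, adjusted p = 0.149). The genes whose profile over the 12 groups was nearest to that of Ung, by the root mean square difference of mean-centred log2 CPM (prior count 2) among 13859 genes, were E2f8 (0.24), Cip2a (0.27) and Cenpi (0.27).

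The cell cycle lists moved in the comparisons in which Ung was called. A list of 20 genes of G2 and mitosis was called higher for 20 of 20 with VC in WT cells at day 0 (summed level 78.5 to 87.3 CPM without and 266 to 317 CPM with VC), 20 of 20 at WT day 4 (47.5 to 51.2 against 140 to 154 CPM) and 20 of 20 at D/KO day 4 (224 to 304 against 722 to 894 CPM). Between the untreated lines 19 of 20 were higher in D/KO (240 to 274 CPM, against 78.5 to 87.3 CPM in WT). A list of 20 S phase genes was called higher for 15, 12, 17 and 14 of 20 in these 4 comparisons. The G2 and mitosis list was also called higher for 20 of 20 at D/KO day 4 plus VC against day 0 plus VC and for 15 of 20 between the D/KO and WT tail controls of the second table, where Ung was not called (log2 0.57 and 0.75). Against day 0 without VC, Ung was called higher (edgeR) at D/KO day 4 plus VC (log2 0.82, adjusted p = 0.0440) and WT day 4 plus VC (1.02, 0.0397). At day 2 plus VC it was not called against that baseline in D/KO (0.16) or WT (0.60). The part of these lists in the Ung differences was not tested.

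Tdg encodes thymine-DNA glycosylase, which takes thymine and uracil out of mismatches with guanine and removes formylcytosine and carboxylcytosine. It was lower in D/KO than in WT cells throughout the first table: the 18 D/KO libraries ran from 6.95 through a median of 10.0 to 14.5 CPM and the 18 WT libraries from 15.5 through 20.0 to 23.4 CPM. At day 0 the values were 11.99, 9.27 and 10.8 CPM in D/KO and 23.4, 17.7 and 22.8 CPM in WT. The D/KO level was 0.50 of the WT level (log2 -0.99, SE 0.19, adjusted p = 4.86e-05), and all 11 alternatives kept the call. This difference between lines was not seen in the second table, where the D/KO control (12.4, 14.8 and 13.7 CPM) and the WT tail control (9.17, 14.9 and 8.73 CPM) overlapped (log2 0.33, 95% interval -0.16 to 0.82, adjusted p = 0.273). The overlap came through WT tail control replicate 2, at 14.9 CPM. The other WT tail libraries lay below all D/KO control libraries, the reverse of the first table, and Tdg was called without replicate 2. The 2 tables used different animals and were not set against each other in a test.

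During reprogramming none of the 8 comparisons with day 0 called Tdg. VC raised it in D/KO cells at day 4, from 8.52, 6.95 and 10.7 CPM to 14.5, 12.8 and 13.8 CPM, with no overlap. The fold was 1.57 (log2 0.65, SE 0.19, adjusted p = 0.00710), and without D/KO day 4 replicate 2 the call was just lost (adjusted p = 0.0589). Against day 0 plus VC, Tdg at D/KO day 4 plus VC had a log2 fold change of 0.42 (95% interval 0.03 to 0.80, adjusted p = 0.0649).

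Mbd4 encodes a glycosylase with a methyl-CpG binding domain that excises thymine or uracil opposite guanine at CpG sites. It was called in 2 comparisons. VC in WT cells at day 0 took it from 2.38, 2.31 and 2.96 CPM to 4.42, 5.96 and 2.39 CPM, and the third VC library stayed within the range of the group without VC (log2 0.74, SE 0.28, adjusted p = 0.0464). The call was lost in 5 of 6 fits that left out 1 library, without WT day 0 replicate 1, 2 or 3 or WT day 0 plus VC replicate 1 or 2 (adjusted p = 0.0558 to 0.338), with no low-count filter (0.0676) and with only the 2 groups fitted (0.0743). In the other 5 VC comparisons its log2 difference was between 0.36 and 0.60 and not called. The second call was lower with DMH-1, described with the inhibitors.

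Ogg1 encodes the glycosylase for 8-oxoguanine opposite cytosine. It was the steadiest member, and its only call was a fall at WT day 4, from 11.8, 13 and 12.3 CPM at day 0 to 7.62, 9.06 and 9.16 CPM. These groups did not overlap, and the level at day 4 was 0.70 of that at day 0 (log2 -0.52, SE 0.18, adjusted p = 0.0268). The call was lost without WT day 0 replicate 2 or 3 or WT day 4 replicate 1 or 2 (adjusted p = 0.0515 to 0.132). At WT day 4 plus VC, against day 0 plus VC, the log2 fold change was 0.02 and the 3 libraries at 8.43, 10.8 and 8.61 CPM overlapped the 9.48, 8.97 and 8.89 CPM of day 0 plus VC.

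Mutyh encodes the glycosylase that removes adenine paired with 8-oxoguanine. With 4 to 47 counts in a library it reached the threshold in none of the 27 comparisons (edgeR), and the SE of its log2 fold change was 0.43 to 0.71. Its untreated values were 0.645, 0.762 and 0.530 CPM in D/KO and 1.55, 1.02 and 1.69 CPM in WT. These did not overlap, with a log2 difference of -1.13 (95% interval -2.11 to -0.14, adjusted p = 0.0583).

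Nthl1 encodes the endonuclease III homologue, a glycosylase for oxidized pyrimidines that also cuts the strand. It fell at D/KO day 2, from 5.87, 4.34 and 3.95 CPM to 2.76, 2.79 and 2.89 CPM, without overlap. The day 2 level was 0.60 of day 0 (log2 -0.74, SE 0.28, adjusted p = 0.0466), a call lost without D/KO day 0 replicate 1 or 2 or any of the 3 D/KO day 2 libraries (adjusted p = 0.0619 to 0.211). In the 7 other comparisons with day 0 in the same medium its log2 fold change lay between -0.52 and -0.15 and was not called. Against day 0 without VC, Nthl1 was lower in all 4 comparisons with VC, with a log2 fold change of -0.99 at D/KO day 2 (adjusted p = 0.00447), -0.82 at D/KO day 4 (0.0147), -0.78 at WT day 2 (0.021) and -0.84 at WT day 4 (0.0121), so these calls depended on the baseline. The skin comparison, its second call, is given below.

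Neil1 encodes a glycosylase for oxidized pyrimidines and ring-opened purines that acts in S phase. It rose at WT day 4 plus VC, from 5.43, 5.65 and 3.98 CPM at day 0 plus VC to 8.43, 11.47 and 9.41 CPM, a 1.94-fold difference with no overlap (log2 0.96, SE 0.23, adjusted p = 0.000999). All 6 fits that left out 1 library kept this call. The day 0 plus VC group is the same in which Neil1 was called lower with VC at WT day 0 (7.35, 7.52 and 8.22 CPM without VC, log2 -0.61, SE 0.23, adjusted p = 0.0456). Set against day 0 without VC, the log2 fold change of WT day 4 plus VC was 0.34 and not called (adjusted p = 0.231). The lower value with VC at WT day 0 was not called without WT day 0 replicate 1, 2 or 3 or WT day 0 plus VC replicate 1 or 3 (adjusted p = 0.0662 to 0.204).

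Neil2 encodes a glycosylase for oxidized bases with a preference for single-stranded and bubble DNA. It was lower in the untreated D/KO line (0.258, 0.469 and 0.412 CPM) than in the WT line (1.44, 1.34 and 1.33 CPM), at 0.28 of the WT level with no overlap (log2 -1.82, SE 0.50, adjusted p = 0.00327), and all 10 alternatives in which it was tested kept the call. In the second table the difference between controls was smaller and not called (log2 -0.38, 95% interval -1.41 to 0.65, adjusted p = 0.564). In D/KO cells on the second day with VC it stood at 0.405, 0.118 and 0.224 CPM (7, 2 and 4 counts), below the 0.906, 0.753 and 0.631 CPM of day 0 plus VC (log2 -1.59, SE 0.57, adjusted p = 0.0204). That call was lost without D/KO day 0 plus VC replicate 1 or D/KO day 2 plus VC replicate 2 or 3 (adjusted p = 0.0608 to 0.0983), and against day 0 without VC the log2 fold change was -0.60 (adjusted p = 0.444). The day 0 plus VC libraries lay above the day 0 libraries without VC with no overlap (log2 0.99, 95% interval -0.10 to 2.08, adjusted p = 0.186). Without VC the log2 fold change of Neil2 in D/KO cells was 0.60 at day 2, with overlap, and 1.06 at day 4, where the 0.651, 0.679 and 1.08 CPM did not overlap day 0 (95% interval 0.001 to 2.11, adjusted p = 0.113), and neither was called.

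Neil3 encodes the family member that acts on single-stranded and telomeric DNA and unhooks crosslinks between strands, and it is known to be expressed in proliferating cells. It had the largest differences of the 10 members, on 0 to 38 counts in a library. With VC in WT cells at day 0 it went from 0.055, 0.269 and 0.255 CPM to 1.26, 0.983 and 1.06 CPM, with no overlap (5.50-fold, log2 2.46, SE 0.62, adjusted p = 0.00244). At WT day 4 the 3 libraries without VC held 0, 1 and 1 counts and those with VC 10, 15 and 27. The ratio of the summed counts, 52 against 2, per library total was 26.6, with an exact 95% counting interval of 7.01 to 226 (edgeR adjusted p = 5.75e-05). Both WT calls were kept in all 10 alternatives in which each was tested. In D/KO cells at day 0 VC took Neil3 from 0.258, 0.293 and 0.648 CPM to 1.81, 1.13 and 0.702 CPM, apart by a small gap (3.00-fold, log2 1.58, SE 0.57, adjusted p = 0.0375). This call was lost without D/KO day 0 replicate 1 or 2 or D/KO day 0 plus VC replicate 1 or 2 (adjusted p = 0.0522 to 0.222), with no low-count filter (0.0614) and with only the 2 groups fitted (0.0672).

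Doxycycline without VC gave a Neil3 level of 1.44, 1.51 and 0.600 CPM at D/KO day 2, 2.90-fold above day 0 although the third library lay inside the day 0 range (log2 1.54, SE 0.57, adjusted p = 0.0403). The call was lost without D/KO day 0 replicate 1 or 2 or D/KO day 2 replicate 1 or 2 (adjusted p = 0.123 to 0.140), with no low-count filter (0.0649) and with only the 2 groups fitted (0.0543). At day 4 the D/KO libraries held 0.977, 1.10 and 0.971 CPM, all above day 0 (log2 1.32, 95% interval 0.16 to 2.48, adjusted p = 0.0671). In WT cells the summed counts went the other way, from 11 at day 0 to 2 at day 4, a ratio of 0.18 with a counting interval of 0.020 to 0.84, and the log2 fold change of -2.24 was not called (adjusted p = 0.0936). The genotype difference at day 4 was called (log2 3.57, SE 1.14, adjusted p = 0.0298), on 20 and 57 counts in D/KO and 11 and 2 in WT. Of 12 fits that left out 1 library, 6 lost it, those without D/KO day 0 replicate 1 or 2, D/KO day 4 replicate 2, WT day 0 replicate 2 or 3 or WT day 4 replicate 1 (adjusted p = 0.0507 to 0.0959).

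The genes nearest to Neil3 in profile over the 12 groups were Xkr5 (root mean square difference 0.36), Esco2 (0.36) and Dtl (0.38), of which Esco2 acts in sister chromatid cohesion and Dtl in S phase ubiquitination. In the 5 comparisons that called Neil3, the G2 and mitosis list was higher for 20 of 20 with VC at WT days 0 and 4, 13 of 20 at D/KO day 2, 8 of 20 in the genotype difference at day 4 and 3 of 20 with VC at D/KO day 0. The list also moved where Neil3 was not called: 20 of 20 were higher at D/KO day 4 plus VC (Neil3 log2 0.49), 20 of 20 with VC at D/KO day 4 (0.76) and 14 of 20 at D/KO day 2 plus VC (0.06), and 17 of 20 were lower at WT day 4 plus VC (-0.21). Against day 0 without VC, Neil3 was called higher (edgeR) at D/KO day 2 plus VC (log2 1.645, adjusted p = 0.0162) and D/KO day 4 plus VC (2.08, 0.00197). It was also called higher at WT day 4 plus VC (2.25, 0.00377), but not at WT day 2 plus VC (1.31, 0.122). The list was higher for 19, 20, 12 and 14 of 20 in these comparisons, in that order. The part of these lists in the Neil3 differences was not tested.

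Apex1 encodes the main abasic site endonuclease, also known as REF1 for its redox action on transcription factors, and every glycosylase product that is not cut by the enzyme itself passes through it. It was the member called most often during reprogramming: higher in 3 of 4 D/KO comparisons with day 0 and in 1 of 4 WT comparisons. At D/KO day 4 plus VC it stood at 8.40, 11.8 and 10.3 CPM, above 5.24, 8.06 and 4.49 CPM at day 0 plus VC, with no overlap. The level was 1.72-fold higher (log2 0.78, SE 0.20, adjusted p = 0.00137), and all 12 alternatives kept the call, the least firm against day 0 without VC (log2 0.46, adjusted p = 0.0486). After 2 days with VC the D/KO libraries held 9.26, 9.24 and 9.57 CPM (1.58-fold, log2 0.66, SE 0.20, adjusted p = 0.00720), lost without D/KO day 0 plus VC replicate 3 (adjusted p = 0.0667) and against day 0 without VC (log2 0.34, adjusted p = 0.157). Without VC the D/KO values were 5.67, 6.22 and 10.2 CPM at day 0 and 9.09, 10.7 and 13.03 CPM at day 2, which overlap through the third day 0 library (1.48-fold, log2 0.57, SE 0.20, adjusted p = 0.0274). That call was lost without D/KO day 0 replicate 1 or 2 or D/KO day 2 replicate 2 or 3 (adjusted p = 0.0549 to 0.170) and with only the 2 groups fitted (0.0862). In D/KO cells after 4 days without VC Apex1 was at 10.04, 10.3 and 9.98 CPM, not called at a log2 fold change of 0.45 (95% interval 0.056 to 0.85, adjusted p = 0.0675) close to that of day 2.

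In WT cells Apex1 rose at day 2 plus VC, from 6.45, 4.85 and 5.97 CPM to 8.71, 9.79 and 10.1 CPM with no overlap, 1.66-fold (log2 0.73, SE 0.20, adjusted p = 0.00571), and all 12 alternatives kept this call. At day 4 plus VC it was back at 6.33, 5.54 and 5.81 CPM, within the range of day 0 plus VC (log2 0.03). The genotype difference at day 4 plus VC was called at the edge of the threshold (log2 0.74, SE 0.29, adjusted p = 0.0495). It was lost in 9 of 12 fits that left out 1 library, those without D/KO day 0 plus VC replicate 1 or 3, D/KO day 4 plus VC replicate 2 or 3, WT day 0 plus VC replicate 1 or 3 or any WT day 4 plus VC library (adjusted p = 0.0563 to 0.152), with no low-count filter (0.0779) and with only the 4 groups fitted (0.0867). Pip4p1, the opposite-strand gene that shares exonic bases with Apex1, was at 43.6 to 50.1 CPM at D/KO day 0 plus VC and 32.1 to 34.8 CPM at day 4 plus VC, so its ranges did not overlap and its level was lower where that of Apex1 was higher. The Myc count does not separate the transgene from the endogenous gene. This count rose at D/KO day 4 plus VC (log2 3.24) and also at WT day 4 plus VC (log2 2.80), where Apex1 was not called. The part of Myc in the Apex1 differences was not tested.

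**Figure D3:**
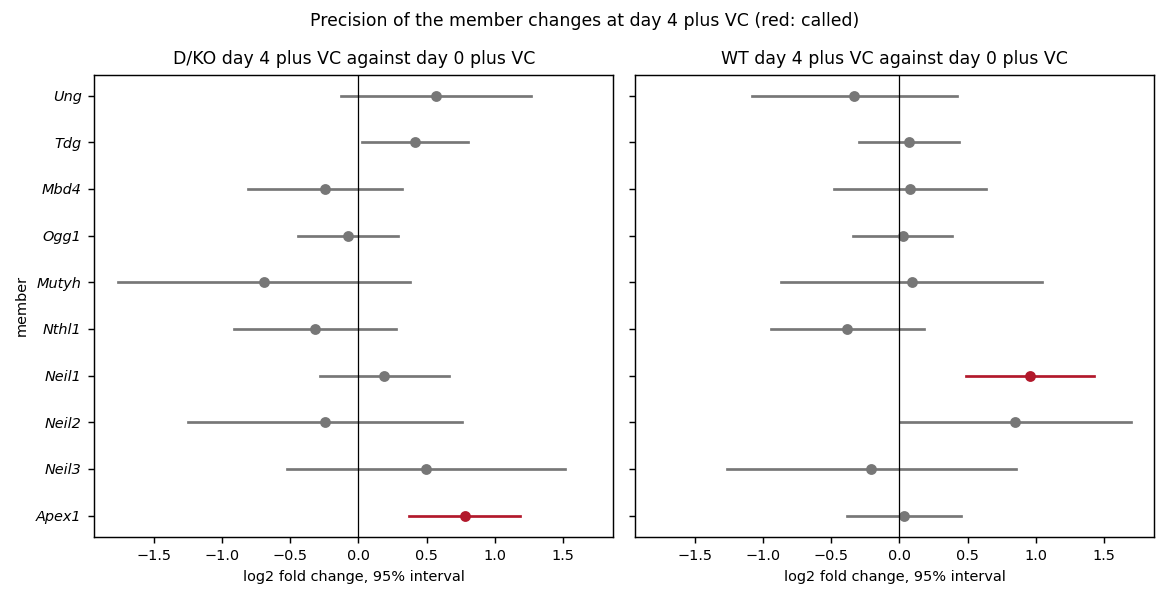
Log2 fold change of each member with its 95% interval at day 4 plus VC against day 0 plus VC, in D/KO (left) and WT (right); red marks calls. Apex1 in D/KO (0.37 to 1.19) and Neil1 in WT (0.48 to 1.43) are the called members, and the interval of Mutyh in D/KO runs from -1.77 to 0.38.

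The intervals at day 4 plus VC show what these libraries could resolve. For Ogg1 in D/KO the interval was -0.45 to 0.29, whereas for Mutyh, Neil2 and Neil3 it spanned more than 2 log2 units, so changes of these low genes were not detectable in these libraries unless large. The other genes of the pathway were read more deeply. Of 27 other base excision repair genes (further glycosylases and end-processing enzymes, polymerases, clamp and clamp loader, ligases and the poly-ADP-ribose enzymes), 14 were higher and 2 lower at D/KO day 4 plus VC, a share close to the 54.1% of all genes called there, with a median log2 fold change of 0.42, beside 1 higher and a median of 0.06 for the 10 members. Against day 0 without VC, 16 of the 27 were higher and 1 lower (median 0.55), and 3 members were higher and 1 lower (median 0.34). The largest rises were in Parp1 (log2 1.68), which senses strand breaks, Lig1 (1.35), the replicative ligase, and Fen1 (1.27), the flap endonuclease. The falls were in Polb (-0.51), the gap-filling polymerase of the pathway, and Hmgb1 (-0.26). At WT day 4 plus VC, 6 of the 27 were higher and 6 lower (median 0.14), and 11 were higher and 3 lower against day 0 without VC. Against day 0 plus VC the WT values were Parp1 at 0.50, Lig1 at 0.14 and not called, Fen1 at -1.41, Polb at -0.42 and Hmgb1 at -0.25. Against day 0 plus VC, genes of G2 and mitosis moved in opposite directions in the lines, with 20 of 20 higher in D/KO and 17 of 20 lower in WT. Of the S phase genes 15 of 20 were higher and 2 lower in D/KO. In WT 10 of 20 S phase genes were lower, beside 44.7% of all genes called there in either direction. The direction in WT turned with the baseline: the G2 and mitosis list summed to 266 to 317 CPM at WT day 0 plus VC, 140 to 154 CPM at day 4 plus VC and 78.5 to 87.3 CPM at day 0 without VC, and against the latter 12 of 20 were higher and none lower, with 11 of 20 S phase genes higher. Several of the 27, such as Lig1, Fen1 and the clamp Pcna (0.94 in D/KO), also serve DNA replication.

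**Figure D4:**
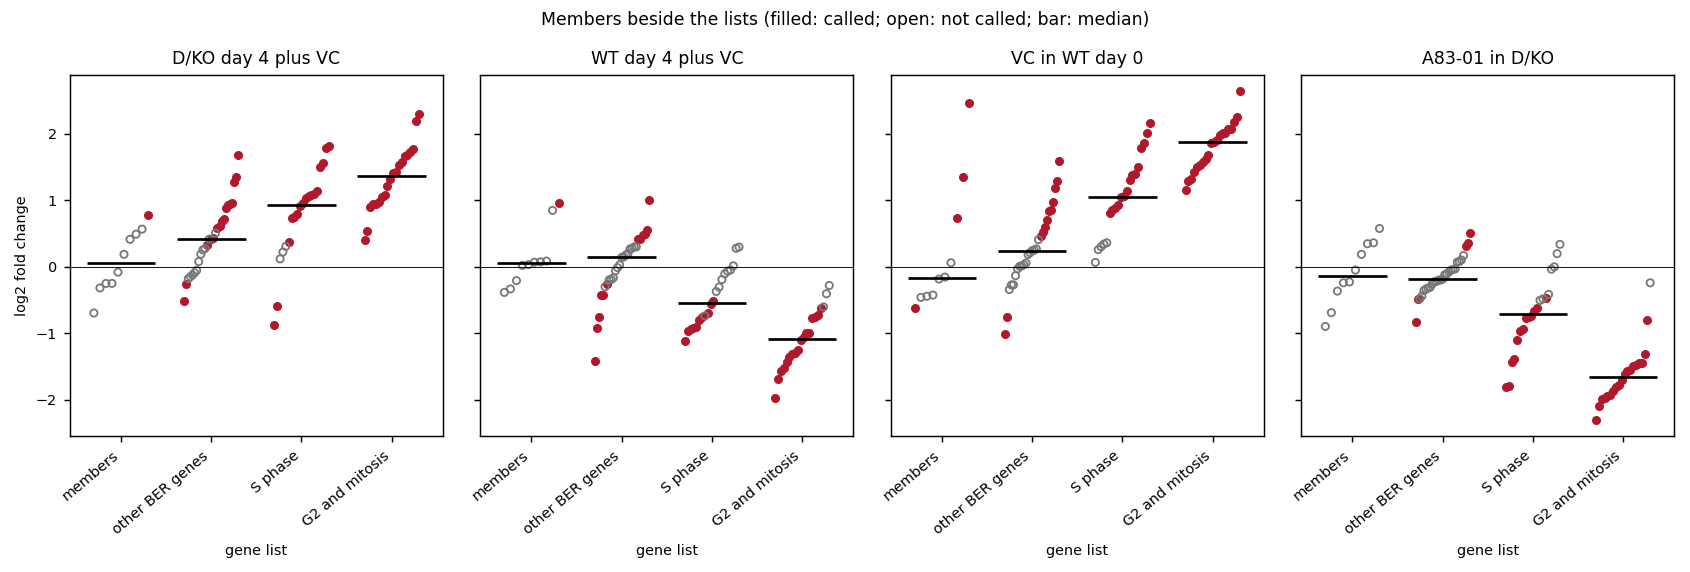
Log2 fold changes of the 10 members, 27 other base excision repair (BER) genes, 20 S phase genes and 20 genes of G2 and mitosis in 4 comparisons; each point is a gene, filled red where called, and bars are medians. At D/KO day 4 plus VC the medians rise from 0.06 for the members through 0.42 and 0.94 to 1.37, and with A83-01 they run from -0.14 through -0.18 and -0.71 to -1.65.

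The plot of lists uses day 0 plus VC as the baseline at day 4 plus VC, and no test compared the lists with each other. Among 13 oxidative stress genes, 9 were higher and 2 lower at D/KO day 4 plus VC (median 0.60), and 4 were higher and 3 lower at WT day 4 plus VC (median 0.05). A list of 10 genes tied to cytosine deamination and demethylation included the Tet enzymes, whose products TDG removes, the Apobec genes and the Gadd45 genes, which are stress-response genes and not enzymes of this kind. Of these, 8 were tested. At D/KO day 4 plus VC, Apobec1 (log2 1.99) and Apobec3 (0.84) were higher, and Tet1 (-1.84), Gadd45a (-1.28), Gadd45b (-2.33) and Gadd45g (-2.19) were lower. These values are against day 0 plus VC. At D/KO day 0, VC itself was called higher for Gadd45b (1.23), Gadd45g (1.97) and Apobec3 (0.38), so the falls of Gadd45b and Gadd45g started from a raised baseline. This list was not set against day 0 without VC. At WT day 4 plus VC, Apobec1 (1.503), Tet2 (1.03) and Tet3 (0.79) were higher and Gadd45b (-0.91) was lower.

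Small-molecule inhibitors of the TGFb receptor family were given to D/KO tail tip fibroblasts without reprogramming factors. Repsox at 0.1 µM and A83-01 at 1 µM block the type I receptor ALK5, Vactosertib at 0.1 µM is described in the study as blocking both ALK5 and the BMP receptor ALK2, and DMH-1 at 1 µM blocks ALK2. Of 40 member tests against the D/KO control, 1 was called. None of the 10 members was called with Repsox (beside 25.2% of 15164 genes; edgeR, none at an unadjusted p under 0.05, none by DESeq2), Vactosertib (22.1%; 2 at an unadjusted p under 0.05, Mbd4 and Neil3, none by DESeq2) or A83-01 (32.6%; none at an unadjusted p under 0.05, none by DESeq2). With DMH-1, 1 of 10 was called, beside 9.75%.

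The called member was Mbd4, which was at 2.68, 3.37 and 3.78 CPM in the control and 1.54, 2.30 and 2.04 CPM with DMH-1, with no overlap. The level was 0.60 of the control (log2 -0.73, SE 0.22, adjusted p = 0.0425). The call was lost without D/KO control replicate 2 or 3 or DMH-1 replicate 1 or 3 (adjusted p = 0.0781 to 0.175), with no low-count filter (0.117), with only the 2 groups fitted (0.0651) and with all 24 libraries in the fit (0.0633). With the other 3 inhibitors the Mbd4 log2 difference was -0.41, -0.51 and -0.36 for Repsox, Vactosertib and A83-01. Neil3 with Vactosertib was at 0.285, 0.151 and 0.313 CPM, all below the control at 0.426, 0.780 and 0.649 CPM (log2 -1.31, 95% interval -2.42 to -0.19, adjusted p = 0.0893). The log2 difference of Ung ran from -0.28 with Repsox to -0.85 with Vactosertib and was called with none of the 4.

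**Figure D5:**
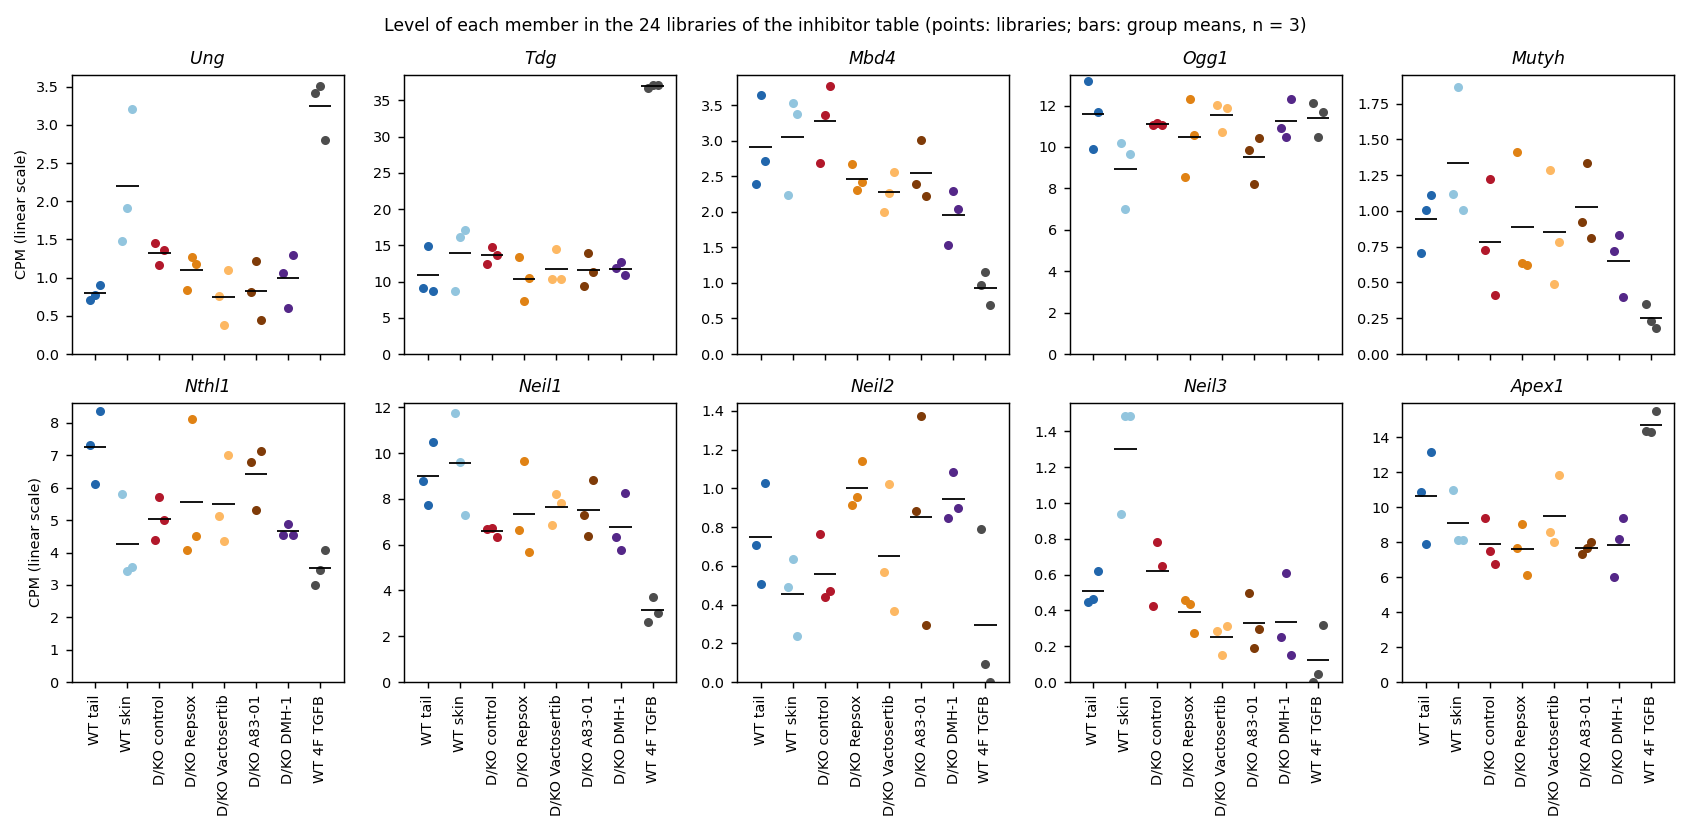
Level of each member (CPM, linear scale) in the 24 libraries of the inhibitor table, by group; points are libraries and bars are means of 3. The 3 libraries labelled TGFB lie highest for Tdg (36.6 to 37.1 CPM) and Apex1 (14.3 to 15.5 CPM) and lowest for Neil1 (2.63 to 3.73 CPM).

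The plot of the inhibitor table shows the D/KO control and inhibitor libraries overlapping for most members. At matched doses 2 pairs were compared. Between Repsox and Vactosertib no member was called, and neither was any gene (0% of 15164; edgeR, with no member at an unadjusted p under 0.05 and none by DESeq2). The log2 differences of the 10 members ran from -0.33 for Apex1 to 0.65 for Neil3. The intervals were -0.46 to 0.16 for Ogg1 and -0.69 to 0.29 for Tdg, but -0.48 to 1.78 for Neil3, so the test does not show that the low members were alike. Between A83-01 and DMH-1 no member was called, beside 25.4% of genes (edgeR; none at an unadjusted p under 0.05, none by DESeq2), and the log2 differences ran from -0.25 for Ung to 0.62 for Mutyh, with intervals of -0.55 to 0.06 for Ogg1, -0.50 to 0.42 for Apex1, -0.09 to 0.83 for Mbd4 and -0.33 to 1.57 for Mutyh. The G2 and mitosis list was called lower for 13 of 20 with Repsox, 19 with Vactosertib, 19 with A83-01 and 10 with DMH-1, with none higher. Of the 27 other base excision repair genes 3 were higher and 2 lower with A83-01: Xrcc1 (log2 0.51), Hmgb1 (0.36) and Aptx (0.31) rose, and Lig3 (-0.83) and Rfc1 (-0.48) fell. At D/KO day 4 plus VC, Xrcc1 (-0.05), Aptx (-0.15) and Lig3 (0.28) were not called and Rfc1 was higher (0.73).

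No member was called between the D/KO control and the WT tail control of the second table, beside 40.2% of genes (edgeR; 2 at an unadjusted p under 0.05, Nthl1 and Neil1, none by DESeq2), and leaving out WT tail control replicate 2 made it 2, Tdg and Apex1. Between WT skin and WT tail tip fibroblasts 2 of 10 members were called, beside 34.2% of 15652 genes. Ung was at 1.48, 1.91 and 3.21 CPM in skin and 0.708, 0.775 and 0.906 CPM in tail, apart and 2.72-fold higher in skin (log2 1.45, SE 0.38, adjusted p = 0.00522), kept in all 11 alternatives. Nthl1 was lower in skin, at 5.81, 3.44 and 3.56 CPM against 7.31, 6.12 and 8.36 CPM, also with no overlap (0.59 of tail, log2 -0.76, SE 0.25, adjusted p = 0.0236). Its call was lost without WT tail control replicate 1 or 3 or WT skin control replicate 2 or 3 (adjusted p = 0.0528 to 0.0987) and with only the 2 groups fitted (0.0952). Without WT skin control replicate 1, 5 members were called, with Tdg, Ogg1 and Neil3 added. All 20 genes of G2 and mitosis were higher in skin (643 to 653 CPM summed, against 115 to 124 CPM), and their part was not tested.

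The WT 4F libraries labelled TGFB had no untreated control of their line in the table, and the label does not say what was added, so only levels are given. They held the highest Tdg of the 8 groups (36.6, 37.1 and 37.0 CPM), the highest Apex1 (14.3, 14.3 and 15.5 CPM) and the highest Ung (3.42, 3.50 and 2.80 CPM, overlapping skin). Neil1 (2.63, 3.73 and 3.03 CPM), Mbd4 (0.966, 1.15 and 0.688 CPM) and Mutyh (0.351, 0.231 and 0.183 CPM) were lowest there. The G2 and mitosis list summed to 63.0 to 67.8 CPM in these libraries, beside 115 to 124 CPM in the WT tail control. The sum of 10 keratinocyte markers was 353 to 385 CPM, beside 13.8 to 16.3 CPM. Only 3 of the 10 had a mean over 1 CPM in these libraries and 2 in the WT tail control, so most of the list stayed low.

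The targeted gene and the cell type markers were checked in every group. Ercc1 was at 11.9, 11.9 and 18.6 CPM in untreated D/KO and 21.8, 21.9 and 17.98 CPM in WT, overlapping through 1 library, and in the second table the D/KO control (20.3 to 20.9 CPM) and the WT tail control (13.3 to 21.7 CPM) were not apart. A truncated allele can still be read, so the Ercc1 count does not check these labels. All 10 fibroblast markers were over 1 CPM in every group, and their sum went from 191300 to 262800 CPM at D/KO day 0 plus VC to 36830 to 38430 CPM at day 4 plus VC. The sum of 10 keratinocyte markers went from 7.02 to 13.2 CPM to 454 to 575 CPM between these groups. At D/KO day 4 plus VC 5 of the 10 had a mean over 1 CPM, and Krt15 was at 0. With VC the fibroblast markers went from 63240 to 63980 CPM to 162400 to 177900 CPM at WT day 0, from 52620 to 54540 CPM to 64390 to 76000 CPM at WT day 4 and from 96780 to 132800 CPM to 191300 to 262800 CPM at D/KO day 0, where endothelial markers went from 784 to 857 CPM to 289 to 332 CPM. The keratinocyte markers were at 68.5 to 82.5 CPM at D/KO day 4 without VC. In bulk RNA fewer cells of a type and less RNA per cell cannot be told apart. Endothelial markers summed to 784 to 857 CPM in untreated D/KO and 15.1 to 17.8 CPM in WT, and immune markers to 17.7 to 19.2 CPM in D/KO and 83.6 to 158 CPM in WT with Cd3e at 0. Neural crest markers summed to 8.85 to 11.3 CPM in the D/KO control of the second table and to 14.2 to 44.1 CPM with the inhibitors, highest with A83-01 (35.5 to 44.1 CPM). Muscle markers summed to 2.09 to 3.77 CPM in WT tail and 69.3 to 93.3 CPM in WT skin. The part of these markers in the differences of Ung, Tdg and Neil2 between the lines, of the members called with VC, of Apex1 during reprogramming, of Mbd4 with DMH-1 and of Ung and Nthl1 in skin, was not tested.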

How the data were processed

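RNA was sequenced as reads of 150 bases. Per the study's methods, the authors trimmed reads with TrimGalore, checked them with FastQC, aligned them to GRCm39 with Hisat2, counted them per gene with featureCounts (Subread) and tested them with DESeq2; versions are not given in the sources used here. The authors deposited 1 table of 36 and 1 of 24 libraries that hold whole-number read counts for each gene, with no normalization. Symbols came from GENCODE M39, which matched 98.7% of 56980 identifiers, and promoters from RefSeq (GRCm38.p6). No protein sequence was used here.

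The counts were tested with edgeR 4.0.16 in R 4.3.3 (quasi-likelihood F-test, two-sided, TMM scaling, filterByExpr with a count minimum of 10, Benjamini-Hochberg adjustment over all genes tested, threshold 0.05), with 1 coefficient a group: 36 libraries in 1 fit, the 18 tail tip control and inhibitor libraries in another, and all 24 of the second table for skin against tail. SEs are the log2 fold change divided by the square root of F. Levels are CPM with TMM-scaled library sizes within a table, and tables were not tested against each other. Replicate pairs varied by 3.25 to 60.3 times counting noise in the first table and 4.26 to 397 times in the second, so no library was counted as a copy. Replicate numbers follow the order of the libraries and pair nothing. Intervals on counts are exact at 95% and cover counting error only.

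The members, and the lists of other base excision repair, S phase, G2 and mitosis, oxidative stress, cytosine deamination and demethylation, reprogramming factor and cell type marker genes, were chosen with earlier results of these data known. The rule for names took all 10 members, of which those called are given in every comparison and the others by counts, ranges and the plots, with the 3 other base excision repair genes of the largest rise and of the largest fall among those called at D/KO day 4 plus VC and with A83-01 where as many were called. Pcna, Pip4p1, the genes nearest to Ung and Neil3 in profile and the Apobec, Tet and Gadd45 genes stand outside that rule or beside it, and Pcna and the called Apobec, Tet and Gadd45 genes were picked after their values were seen. Alternatives were DESeq2 1.42.0, its size factors in edgeR, no low-count filter, at least 10 counts in every library, only the groups compared, the median log2 fold change subtracted (a value with no test), day 0 without VC as baseline, all 24 libraries, and 1 library left out. Scripts were tested on simulated counts.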

Additional observations from a re-analysis of the deposited data

Results flagged for a closer look

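In 2 results a member's change differed between the D/KO and WT lines by a test of the difference itself. The change of Neil3 from day 0 to day 4 differed by 3.57 on the log2 scale (SE 1.14, edgeR adjusted p = 0.0298), with 20 and 57 summed counts in D/KO and 11 and 2 in WT. The change of Apex1 from day 0 plus VC to day 4 plus VC differed by 0.74 (SE 0.29, edgeR adjusted p = 0.0495), with 1.72-fold more in D/KO and a log2 fold change of 0.03 in WT. Genotype, sex, age and reporter changed together between the lines, and their parts cannot be told apart. Over the alternatives the difference kept its call in 10 of 16 for Neil3 (log2 3.04 to 4.10, adjusted p = 0.0169 to 0.0959) and in 6 of 17 for Apex1 (log2 0.58 to 1.02, adjusted p = 0.00709 to 0.152).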

How the results depend on the processing

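No paired analysis was possible because the labels give no replicate numbers shared between groups. For single members, 214 of 292 alternative tests kept the call, 78 lost it and 0 changed direction, and 62 of the 78 came from the 168 fits with 1 library left out. A fit with 1 library left out has 2 in that arm, whose spread is assumed to be like that of the other groups. For the alternative fits here and above, the share of all genes called is given only against day 0 without VC. Whether the other counts of members moved with all genes is therefore not shown. With only the groups compared in the fit, the number of members called was 1 in D/KO cells at day 2 without and 1 with VC, 2 at WT day 4, 2 at WT day 2 plus VC, 0 for the genotype difference at day 4 plus VC, 0 for VC in D/KO at day 0, 0 for DMH-1 and 2 between the controls of the second table. With no low-count filter it was 2 at WT day 2 plus VC and 0 for the genotype difference at day 4 plus VC, VC in D/KO at day 0 and DMH-1. Requiring 10 counts in every library left fewer members to test, and the number was 1 at D/KO day 2 plus VC, 0 for the genotype difference at day 4, 0 for VC in D/KO at day 0, 1 for VC in D/KO at day 4, 0 for VC in WT at day 4 and 1 between the untreated lines. Against day 0 without VC it was 4 at D/KO day 4 plus VC (Ung, Nthl1, Neil3 and Apex1), 2 at WT day 2 plus VC (Nthl1 and Apex1) and 4 at WT day 4 plus VC (Ung, Mbd4, Nthl1 and Neil3). DESeq2 called 1 at D/KO day 4 (Neil3), 5 for VC in WT at day 0 (Ogg1 added) and 3 between skin and tail (Neil3 added), and all 24 libraries in the fit gave 0 for DMH-1.

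With 1 library left out, the number called ran in D/KO cells from 0 to 3 at day 2, 0 to 2 at day 4, 1 to 2 at day 2 with VC and 1 to 2 at day 4 with VC. In WT cells it ran from 0 to 1 at WT day 4, 1 to 2 at WT day 2 plus VC, and elsewhere 0 to 2 for the genotype difference at day 4, 0 to 1 for that at day 4 plus VC, 0 to 1 for VC in D/KO at day 0, 1 to 2 for VC in D/KO at day 4, 1 to 3 for VC in WT at day 0, 0 to 1 for VC in WT at day 2, 0 to 1 for DMH-1, 0 to 2 between the controls of the second table and 1 to 5 between skin and tail. The cause of these moves was not tested, beyond the smaller number of members or libraries in the fit. The SEs were largest for Mutyh, Neil2 and Neil3, the members with the fewest counts, at up to 0.71, 0.72 and 1.14 on the log2 scale. The parts of depth and of spread between libraries in these SEs were not separated.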
